A study of Homo sapiens with 6 samples.

Results

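Accessible chromatin was described at 8 genes of retinoid metabolism: ALDH1A1, ALDH1A2, ALDH1A3, ALDH8A1, CYP26A1, CYP26B1, DHRS3 and CRABP2. Their regions were selected by name: every region that the authors' deposited tables name for 1 of the genes, at any distance from the gene start, was kept once. This gave 253 of 226920 regions, under 8 of 19059 gene names. The list of genes was proposed with fold changes of these data already known, so the calls and fold changes below are a description of these libraries and support no claim that retinoid genes were singled out. The name ties a region to a gene start and is no evidence of regulation.

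The assay was ATAC-seq, in which the Tn5 transposase cuts and tags open DNA, in A375, an established human melanoma cell line. Each of 3 groups had 2 libraries: mock, from untreated cells, and recombinant HMGA1 added for either 2 h or 18 h. HMGA1 is a small architectural protein of chromatin that holds AT-rich DNA through its AT hooks. No dose or vehicle is given in the labels, and mock cells are labelled only as untreated. Libraries of a group are labelled as biological replicates, with no word on separate cultures, so a p-value here measures only how these libraries spread, which may be technical in part. The tables hold a mean signal over all 6 libraries and a log2 fold change with its standard error (SE) per region, and no value of a single library, so the depth and the spread of each library are unknown here. As a check on the labelled cell type, 4 of 8 melanocyte lineage genes (MITF, SOX10, PMEL and PAX3) had a region within 1 kb of their start in the authors' deposited table, with mean signals of 63.8 to 694. The same held for 2 of 4 keratinocyte, 2 of 4 fibroblast and 1 of 4 immune genes, with mean signals of 24.2 to 78.2 in the authors' deposited table, where start regions had a median of 254. TYR, TYRP1, DCT and MLANA, which define pigmented melanocytes, had no such region.

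Retinoic acid is the active form of vitamin A. Retinol is oxidised reversibly to retinal, and retinal is oxidised irreversibly to retinoic acid by the ALDH1A enzymes. DHRS3 works against them by reducing retinal to retinol, and CYP26 enzymes break retinoic acid down. CRABP2 carries retinoic acid to its nuclear receptors, the RARs, which bind DNA as partners of the RXRs. CYP26A1 and DHRS3 are well-known retinoic acid target genes, and ALDH1A activity is widely used to mark subpopulations of tumour cells, also in melanoma.

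Retinoic acid receptors bind direct repeats of a short core motif, and 1 such element lay in the starts of these genes. The RefSeq promoter windows (GRCh38.p14) reach from 250 bases before to 50 bases after a start, and 12 windows matched the 8 genes. Direct repeats of the core motifs AGGTCA or AGTTCA or GGGTCA or GGTTCA with a spacer of 5, 2 or 1 bases were searched on both strands, and the forms can overlap. The match lay in a CYP26A1 window, had a spacer of 5 bases and sat on the minus strand at chr10:93073803-93073819. It is printed on the plus strand, chr10:93073797-93073826 of GRCh38.p14, with the element in capitals, because it is the 1 such element in these windows and overlaps an accessible region.
CYP26A1: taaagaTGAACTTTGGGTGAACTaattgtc
A direct repeat with that spacer was found in 31 of 35116 windows (0.0883%), one with a spacer of 2 in 14 (0.0399%) and one with a spacer of 1 in 46 (0.131%). Single core motifs were far more common, in 38.6% of windows. The accessible region at this start covered 11 of the 17 bases of the element, to within 1 base, since the files do not say whether they count from 0 or from 1. Its fold changes are given with CYP26A1 below. A match is a description of the letters and not evidence of binding.

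The starts of ALDH1A3 and ALDH1A1 are printed because they lay at opposite ends of the 12 windows in base composition and of the overlapping regions in mean signal, and because AT-rich runs are the kind of DNA that AT hooks bind. Each is the stretch of 250 bases before the RefSeq start, on the strand of the gene, with runs of 6 or more A or T bases in capitals. ALDH1A3 lies at chr15:100879581-100879830 (plus strand) and ALDH1A1 at chr9:72953054-72953303 (minus strand) of GRCh38.p14.
ALDH1A3: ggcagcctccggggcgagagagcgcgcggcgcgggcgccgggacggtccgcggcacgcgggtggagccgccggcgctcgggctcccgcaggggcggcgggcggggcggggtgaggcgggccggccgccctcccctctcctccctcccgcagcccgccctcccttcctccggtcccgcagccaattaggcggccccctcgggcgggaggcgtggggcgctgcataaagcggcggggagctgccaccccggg
ALDH1A1: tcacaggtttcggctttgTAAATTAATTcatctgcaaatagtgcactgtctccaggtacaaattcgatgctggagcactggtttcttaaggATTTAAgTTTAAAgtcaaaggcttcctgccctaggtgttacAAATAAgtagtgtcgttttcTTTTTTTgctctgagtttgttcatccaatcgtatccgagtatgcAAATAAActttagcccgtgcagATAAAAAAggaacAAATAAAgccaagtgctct
The ALDH1A3 stretch was 82.4% G or C and held 0 such runs. The ALDH1A1 stretch was 38.4% G or C and held 8, the longest of 10 bases. Over all 35116 windows the median was 58% G or C, 10.8% of windows were at or below ALDH1A1, and 58.7% held at least 1 run. The region over the ALDH1A3 start had a mean signal of 403 and that over the ALDH1A1 start 20.2 in the authors' deposited table. The other windows with an overlapping region were that of CYP26B1 (62.8% G or C, mean signal 20.2) and a CYP26A1 window (64.4% G or C, mean signal 82.9). Each held 2 runs of A or T, the longest of 9 bases in CYP26B1 and of 7 in CYP26A1. A signal as low as that at ALDH1A1 thus also lay over a start richer in G or C. A link between base composition and signal was not tested.

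The 253 regions lay mostly away from gene starts. Of these, 76 lay inside the RefSeq span of their own gene, 6 (2.37%) lay within 1 kb of the deposited start, against 7.32% of all regions, and 81 (32.0%) lay beyond 100 kb, against 28.8%. Their median mean signal was 42.9, against 39.3 over all regions in the authors' deposited table. ALDH1A3 had 54 regions, DHRS3 47, CYP26B1 42, ALDH1A2 29, ALDH8A1 26, CYP26A1 and CRABP2 19 each, and ALDH1A1 17. Only regions above a limit on mean signal carry an informative adjusted p. For 2 h against mock the limit was 56.2, and 99 of the 253 regions passed it and count as tested. The limit was 101, with 56 regions tested, for 18 h against mock, and it was 41.7, with 130 tested, for 18 h against 2 h. The 3 comparisons share libraries, and 18 h against 2 h is the difference of the other comparisons, so the same region's values in them are not independent.

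After 2 h, 3 of the 99 tested regions were called higher than in mock, that is, had an adjusted p under 0.05 from DESeq2 in the authors' deposited table, all of them inside ALDH1A3, and 0 were called lower. Over all 86137 tested regions, 0.856% were called higher and 0.421% lower. At an unadjusted p under 0.05, 14 of the 99 passed, where 10% of all tested regions did. Of the 14, 8 were ALDH1A3 regions, and the other 7 genes gave 6 of 77 tested. The median log2 fold change of the 99 was -0.03 and that of all tested regions -0.06 in the authors' deposited table. At 18 h against mock, 0 of 56 tested regions were called in either direction by DESeq2, where 0.00542% of all tested regions were called higher and 0.116% lower. An unadjusted p under 0.05 was reached by 2 of these 56 regions and by 7.89% of all tested regions. At 18 h against 2 h, 1 of 130 tested regions was called higher, named for ALDH8A1, and 5 were called lower, 3 of ALDH1A3 and 2 of ALDH8A1. Here 0.498% of all tested regions were called higher and 2.98% lower. An unadjusted p under 0.05 was reached by 26 of the 130 and by 11.6% of all tested regions. Of the 26, 12 were ALDH1A3 and 6 were ALDH8A1 regions. The median log2 fold change was -0.05 at 18 h against mock and -0.0052 at 18 h against 2 h, against -0.07 and 0.01 over all tested regions in the authors' deposited table. These medians were thus close to those of the whole table, and the calls belonged to ALDH1A3 and ALDH8A1. No region of the other 6 genes was called in any comparison.

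**Figure D1:**
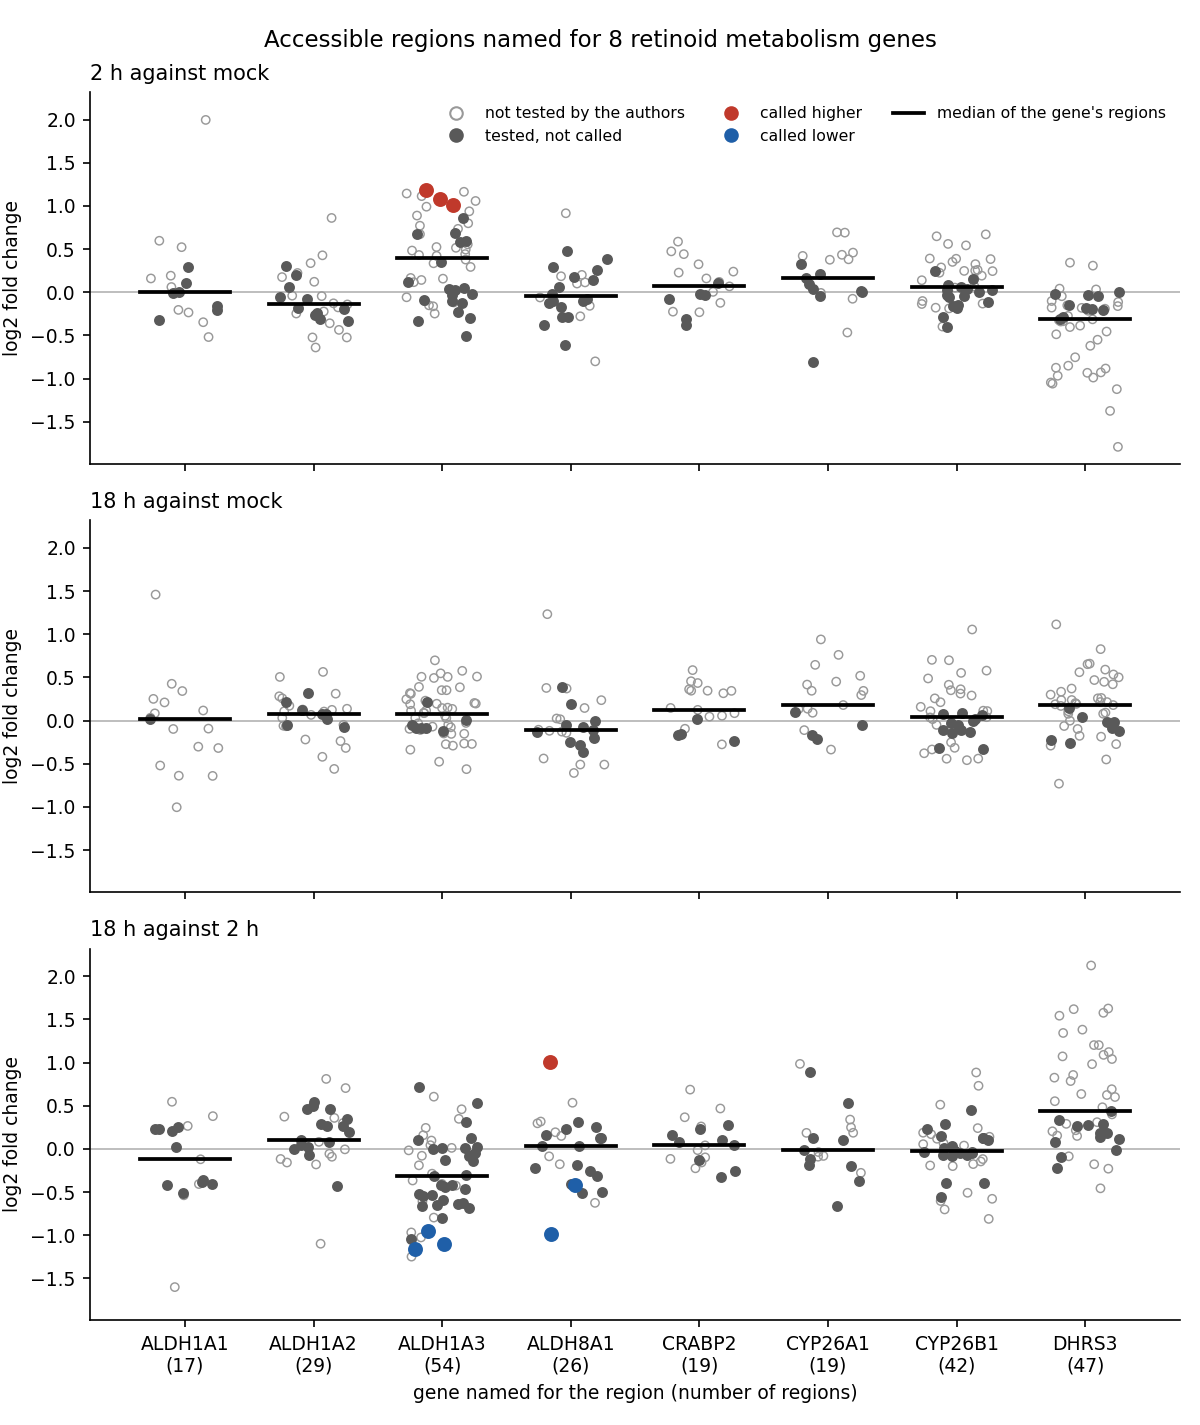
Log2 fold change of every region of each gene in the 3 comparisons, from the authors' deposited tables. Each point is a region, filled where tested and open where not, with called regions marked and a bar at the median over the gene's regions. ALDH1A3 has a median of 0.40 and DHRS3 of -0.31 at 2 h against mock.

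ALDH1A3, which makes retinoic acid from retinal and has been linked to melanoma and glioma cells with stem-like traits, held the 3 regions that rose at 2 h. The gene lies on the plus strand of chromosome 15, from 100879831 to 100916626 (RefSeq, GRCh38.p14), and spans 36.8 kb. The region 21.3 kb past the deposited start (hg38, chr15:100900707-100901208, mean signal 62.2) was higher at 2 h by 1.18 ± 0.33 on the log2 scale, a size of 2.27-fold (in the authors' deposited table, DESeq2's adjusted p = 0.0287). Its log2 fold change was 0.09 ± 0.34 (SE) at 18 h against mock in the authors' deposited table, and from 2 h to 18 h it fell by 1.10 ± 0.32 (adjusted p = 0.0246). A neighbour at 22.1 kb (chr15:100901462-100901963, mean signal 59.1) was higher by 1.08 ± 0.30 at 2 h (in the authors' deposited table, adjusted p = 0.0350). It stood at -0.08 ± 0.32 at 18 h against mock and fell by 1.16 ± 0.30 from 2 h to 18 h (in the authors' deposited table, adjusted p = 0.0078). Both regions were therefore above mock at 2 h and within 1 SE of it at 18 h. The third, at 17.8 kb (chr15:100897168-100897669, mean signal 72.8), was higher by 1.01 ± 0.29 at 2 h (in the authors' deposited table, adjusted p = 0.0375). Its value from 2 h to 18 h, -0.80 ± 0.28, missed the threshold (in the authors' deposited table, adjusted p = 0.0896). Another region at 34.5 kb (chr15:100913886-100914387, mean signal 70.4), close to the end of the gene, fell by 0.95 ± 0.29 from 2 h to 18 h (in the authors' deposited table, adjusted p = 0.0299). At 2 h against mock it stood at 0.68 ± 0.28 and missed the threshold (in the authors' deposited table, adjusted p = 0.304).

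The called regions were part of a pattern along the gene body and not always its largest values. At 2 h against mock, untested regions at 28.1, 20.3 and 13.8 kb stood at 1.16 ± 0.41, 1.14 ± 0.35 and 1.11 ± 0.43. At 18 h against 2 h, an untested region at 27.6 kb stood at -1.25 ± 0.41. A tested region at 26.4 kb stood at -1.05 ± 0.37 in the authors' deposited table and was not called. Inside the ALDH1A3 span, 30 of 31 regions were above 0 at 2 h against mock, with a median log2 fold change of 0.68 in the authors' deposited table. Of these 31 regions 14 were tested, and 13 of the 14 were above 0. The mean signal that decides testing includes the 2 h libraries, so a region that rose at 2 h passes the limit more readily. The count among tested regions is therefore partly set by the limit. From 2 h to 18 h, 30 of the 31 were below 0 with a median of -0.55, and at 18 h against mock 18 were above 0 with a median of 0.11 in the authors' deposited table. Only 3 of the 31 were tested at 18 h against mock, and all 3 were below 0, with a median of -0.09. In that comparison 30.5% of all tested regions were above 0. The 23 regions outside the span all lay before the gene's start, so the side past its end was not compared. Their median at 2 h was -0.06 in the authors' deposited table. All 8 tested ones were below 0, where 37.8% of all tested regions were above 0. Of the 15 untested ones, 9 were above 0, with a median over the 15 of 0.14 in the authors' deposited table. The shift also differed along the gene. The 3 regions in the first 5 kb had a median of 0.12 at 2 h, and the 27 regions farther in had 0.74 in the authors' deposited table.

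The start region and the strongest region of ALDH1A3 stood close to 0. The start region (chr15:100879579-100880080, 204 bases from the deposited start, mean signal 403) stood at 0.03 ± 0.12 at 2 h and -0.05 ± 0.12 at 18 h against mock in the authors' deposited table. The strongest region, 12.1 kb past the start (chr15:100891511-100892012, mean signal 840), stood at -0.10 ± 0.09 and -0.09 ± 0.09 in the authors' deposited table. Inside the span, the 27 regions with a mean signal under 100 ranged from 0.03 to 1.18 at 2 h with a median of 0.74, and the 4 stronger ones ranged from -0.10 to 0.58 with a median of 0.04 in the authors' deposited table. The highest of those 4, 35.4 kb past the start with a mean signal of 101, stood at 0.58 ± 0.23 at 2 h (unadjusted p = 0.0129) and at -0.47 ± 0.23 at 18 h against 2 h in the authors' deposited table, neither called. Low signal moves with this result: over the whole table, 57.8% of the regions not tested and 37.8% of the tested ones were above 0 at 2 h. The rank of the gene among genes of no higher signal is given with the ranking of gene spans.

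**Figure D2:**
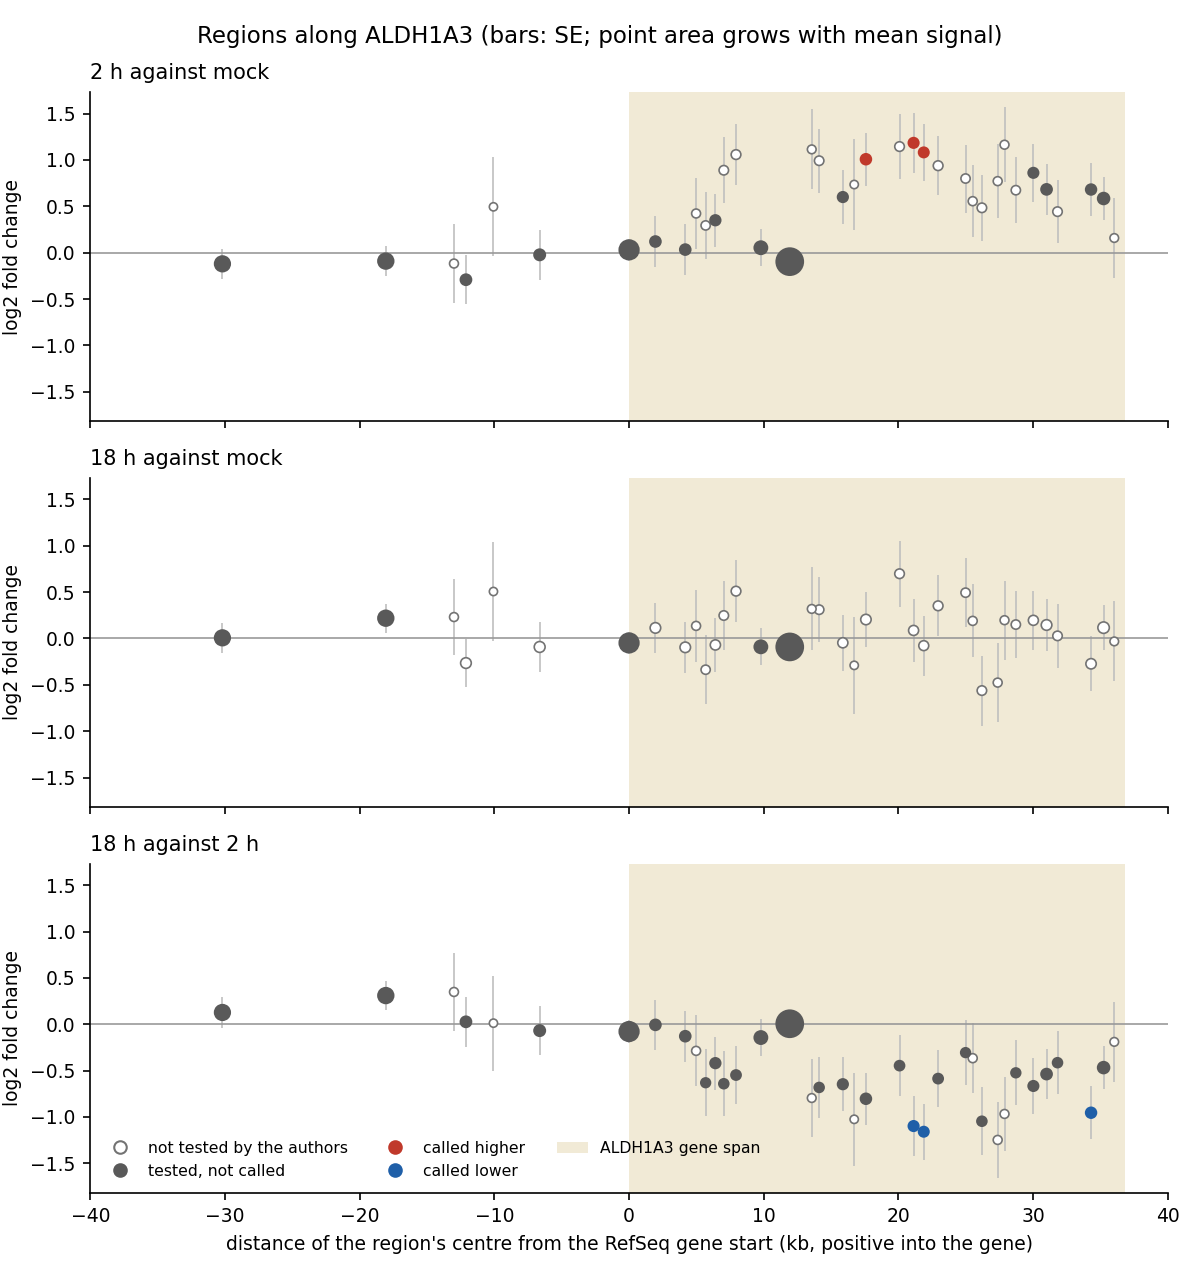
Log2 fold change (bars: SE) of the ALDH1A3 regions against the distance of the region's centre from the RefSeq start in kb, 1 panel per comparison, with the gene span shaded and point area growing with mean signal. Regions centred at -48.3 kb or farther before the start lie outside the axis and are not drawn. Inside the span 30 of 31 regions lie above 0 at 2 h against mock and 30 of 31 below 0 at 18 h against 2 h, while the largest points lie close to 0.

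The ALDH1A3 span was set beside those of other genes by the median log2 fold change of the regions named for a gene and lying inside its RefSeq span. This ranking was chosen after the values were seen and is a description. Among 3466 genes with at least 10 such regions, ALDH1A3 had the 10th highest median at 2 h against mock, while the middle 95% of genes lay between -0.21 and 0.33 in the authors' deposited table. Among the 2602 genes whose regions had a median mean signal no higher than that of ALDH1A3, 53.7, it was 7th from the highest at 2 h and 23rd from the lowest at 18 h against 2 h. Among all ranked genes at 18 h against 2 h it was 27th from the lowest of 3466, and at 18 h against mock 563rd from the highest of 3463. When only tested regions were counted, and genes with at least 5 of them, its median of 0.59 at 2 h over 14 regions was 5th of 2713 in the authors' deposited table. Its 24 tested regions at 18 h against 2 h had a median of -0.54, the 15th lowest of 3577 in the authors' deposited table. Ranks over tested regions are not independent of the 2 h values, since the limit uses a mean signal that includes the 2 h libraries.

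ALDH1A1 and ALDH1A2, the other retinal dehydrogenases, had no called region. The region over the ALDH1A1 start (chr9:72952887-72953388) had a mean signal of 20.2, was not tested, and stood at -0.52 ± 0.52 at 2 h and -0.64 ± 0.52 at 18 h against mock in the authors' deposited table. These values are close to 1 SE from 0. Its strongest region, 69.9 kb away, had a mean signal of 102 and stood at -0.21 ± 0.25 and 0.02 ± 0.24 in the authors' deposited table. The smallest unadjusted p of the gene, 0.0044, belonged to an untested region 84.5 kb away with a mean signal of 19.1 and -1.60 ± 0.56 at 18 h against 2 h in the authors' deposited table. For ALDH1A2, the deposited start lay 213.6 kb from the RefSeq start, so its nearest region by the table, at 8.90 kb, is not close to the RefSeq start. That region stood at 0.20 ± 0.23 at 2 h and 0.13 ± 0.23 at 18 h against mock in the authors' deposited table. The strongest ALDH1A2 region, 52.7 kb away with a mean signal of 1064, stood at -0.07 ± 0.08 and -0.05 ± 0.08 in the authors' deposited table. The ALDH1A2 region nearest to a call, 17.9 kb away, stood at 0.50 ± 0.17 from 2 h to 18 h (in the authors' deposited table, adjusted p = 0.0846). 2 of the ALDH1A2 regions had a further row in the authors' deposited table that named them for AQP9, a neighbouring water and glycerol channel gene.

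ALDH8A1, an aldehyde dehydrogenase first described with 9-cis-retinal as a substrate and later placed in the kynurenine pathway, had 3 called regions, each at 18 h against 2 h. None lay inside the span of a protein-coding gene. The region 40.7 kb from the deposited start (chr6:134908918-134909419, mean signal 466) fell by 0.42 ± 0.12 (in the authors' deposited table, adjusted p = 0.0193). Against mock it stood at 0.14 ± 0.12 at 2 h and -0.28 ± 0.12 at 18 h in the authors' deposited table, neither called. The region at 226 kb (chr6:134723483-134723984, mean signal 114) rose by 1.01 ± 0.24, a size of 2.01-fold (in the authors' deposited table, adjusted p = 0.0022). It stood at -0.61 ± 0.24 at 2 h and 0.40 ± 0.23 at 18 h against mock in the authors' deposited table, on opposite sides of 0. The region at 302 kb (chr6:134647633-134648134, mean signal 62.6) fell by 0.98 ± 0.31 (in the authors' deposited table, adjusted p = 0.0480), from 0.48 ± 0.30 at 2 h to -0.51 ± 0.32 at 18 h against mock. The regions named for this gene thus moved in both directions. Its strongest region, at 96.5 kb with a mean signal of 487, stood at 0.06 ± 0.11 and 0.19 ± 0.11 against mock in the authors' deposited table. No region lay at the ALDH8A1 start, and the nearest, 27.8 kb into the gene with a mean signal of 19.0, was not tested in any comparison.

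DHRS3, the retinal reductase that returns retinal to retinol, showed the opposite direction to ALDH1A3 without a called region. The gene lies on the minus strand of chromosome 1, from 12567910 to 12618210 (RefSeq, GRCh38.p14), and spans 50.3 kb. At 2 h against mock, 43 of its 47 regions were below 0, with a median of -0.31 in the authors' deposited table, and all 10 tested ones were below 0. From 2 h to 18 h, 40 of 47 were above 0 with a median of 0.44, where 51.3% of all regions were above 0. The 13 tested ones had a median of 0.19, with 10 above 0. At 18 h against mock 31 of 47 were above 0 with a median of 0.18 in the authors' deposited table, where 49.8% of all regions were. Of the 8 tested ones there, 6 were below 0, with a median of -0.05, where 30.5% of all tested regions were above 0. DESeq2 called 0 of the 10, 8 and 13 regions tested in these comparisons, and 3, 1 and 2 of them had an unadjusted p under 0.05. The region that came nearest to a call was also the strongest, 21.5 kb into the gene (chr1:12595771-12596272, mean signal 731). It stood at -0.31 ± 0.10 at 2 h (in the authors' deposited table, adjusted p = 0.0709) and at -0.02 ± 0.09 at 18 h against mock. From 2 h to 18 h its value was 0.29 ± 0.10 (in the authors' deposited table, adjusted p = 0.0568). The region nearest to the deposited start (chr1:12618940-12619441, 730 bases from the RefSeq start, mean signal 516) stood at -0.02 ± 0.11 and -0.12 ± 0.11 against mock in the authors' deposited table. The smallest unadjusted p of the gene, 0.0005, belonged to an untested region at 50.1 kb (chr1:12567135-12567636, mean signal 32.8), just past the gene's end. It stood at -1.37 ± 0.46 at 2 h and 0.20 ± 0.40 at 18 h against mock, and at 1.58 ± 0.46 at 18 h against 2 h in the authors' deposited table.

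The DHRS3 values depended on signal. The 39 regions with a mean signal under 100 had medians of -0.34 at 2 h and 0.62 at 18 h against 2 h, and the 8 stronger ones -0.17 and 0.15 in the authors' deposited table. All 8 stronger regions were below 0 at 2 h, between -0.31 and -0.02 in the authors' deposited table. In the ranking of gene spans, DHRS3, with 26 regions inside it, was 41st from the lowest of 3466 at 2 h against mock. Its median at 18 h against 2 h, 0.59, was the 2nd highest of 3466 in the authors' deposited table. Among the 770 genes whose regions had a median mean signal no higher than that of DHRS3, 30.3, it was the highest at 18 h against 2 h and 9th from the lowest at 2 h. With tested regions only, its median of 0.23 over 10 regions at 18 h against 2 h was 84th of 3577, and its median of -0.15 over 7 regions at 2 h was 469th from the lowest of 2713 in the authors' deposited table. Its ranks were therefore less extreme in both comparisons when the untested regions were left out, more so at 2 h than at 18 h against 2 h. Here too the limit uses the 2 h libraries, so a region that was lower at 2 h passes it less readily.

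**Figure D3:**
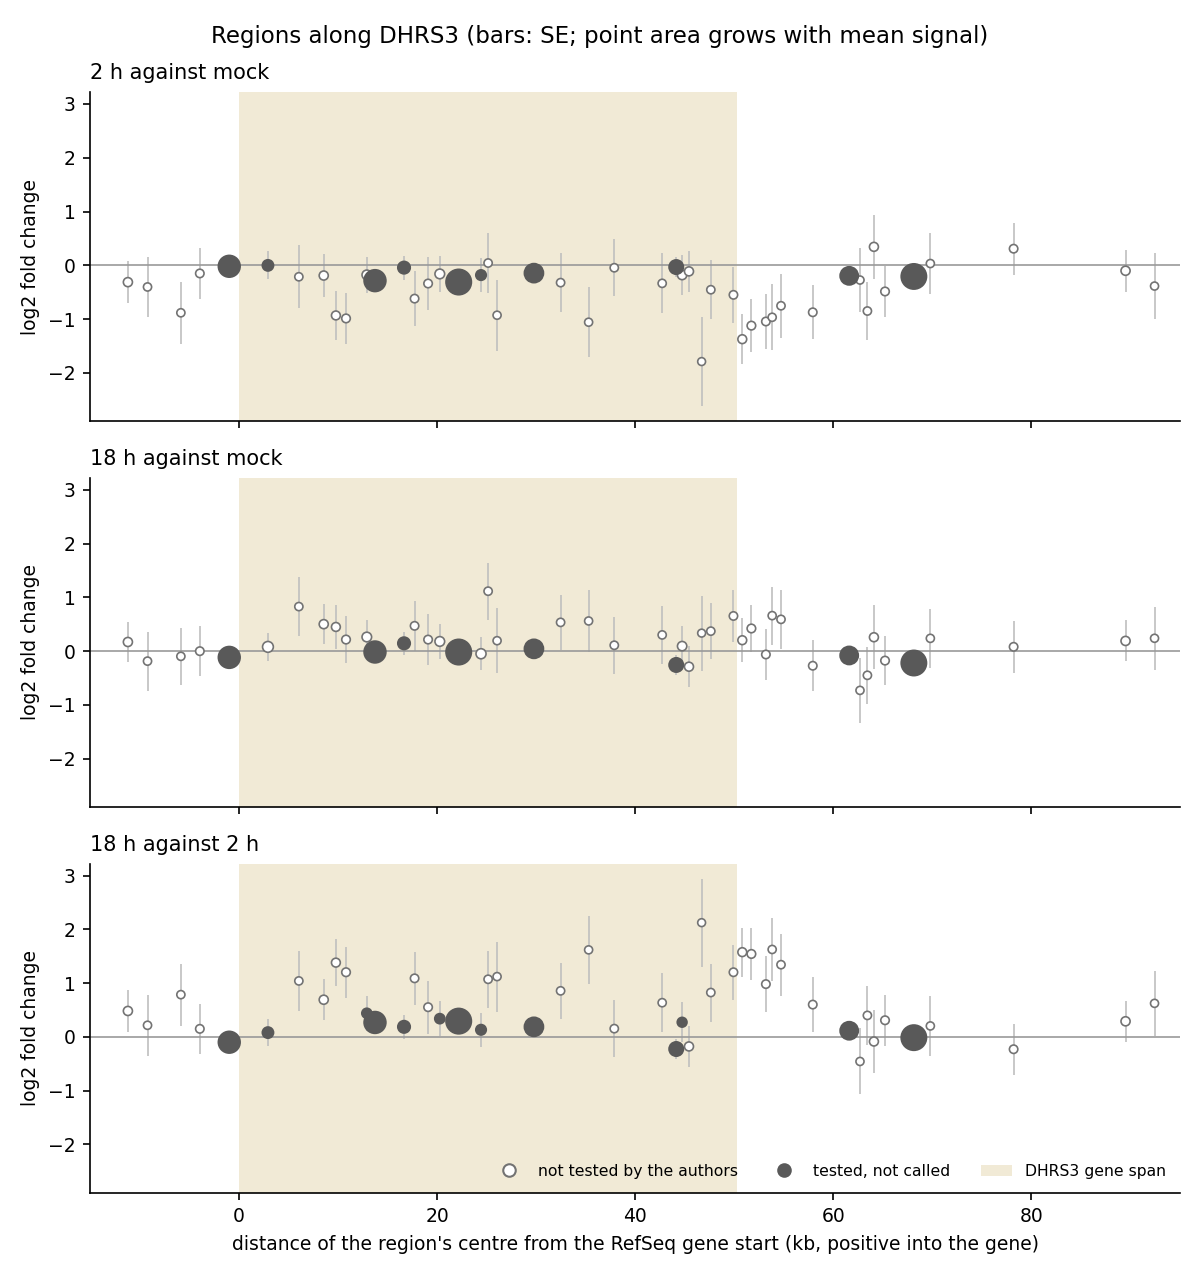
Log2 fold change (bars: SE) of the DHRS3 regions against the distance of the region's centre from the RefSeq start in kb, positive into the gene, 1 panel per comparison. Most points lie below 0 at 2 h against mock (43 of 47) and above 0 at 18 h against 2 h (40 of 47), and the largest of these shifts are in small open points, which were not tested.

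**Figure D4:**
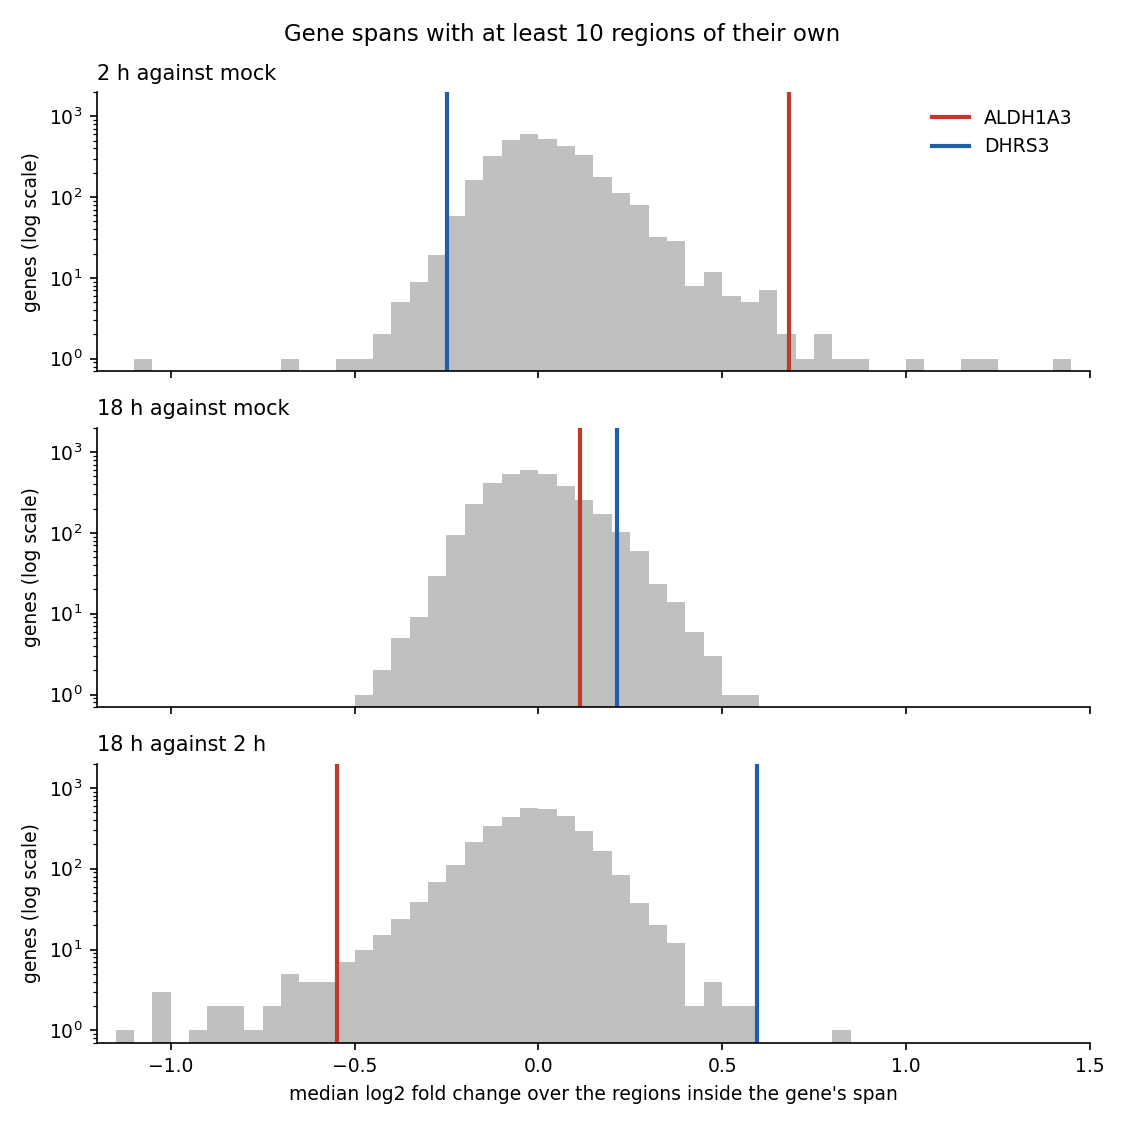
Distribution over genes of the median log2 fold change of the regions inside a gene's span, for genes with at least 10 such regions, with ALDH1A3 and DHRS3 marked. ALDH1A3 (0.68) and DHRS3 (-0.25) lie in opposite tails at 2 h against mock. At 18 h against 2 h (-0.55 and 0.59) the sides are exchanged. That comparison shares the 2 h libraries, so its values are not independent of those at 2 h against mock.

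CYP26A1 and CYP26B1, the enzymes that clear retinoic acid, had no called region. The CYP26A1 region that holds part of the receptor element printed above (chr10:93073809-93074310, mean signal 82.9) stood at 0.0055 ± 0.26 at 2 h and 0.13 ± 0.26 at 18 h against mock in the authors' deposited table. These values are within 1 SE of 0. The strongest CYP26A1 region, 78.6 kb away with a mean signal of 255, stood at 0.17 ± 0.25 and -0.21 ± 0.25 in the authors' deposited table. The region with the smallest p, 172 kb away, stood at -0.80 ± 0.31 at 2 h (adjusted p = 0.237) and at 0.89 ± 0.31 at 18 h against 2 h (in the authors' deposited table, adjusted p = 0.0843). For CYP26B1 the deposited start lay 4.78 kb from the RefSeq start. Its nearest region, 2109 bases from the deposited start with a mean signal of 175, stood at -0.11 ± 0.19 and -0.14 ± 0.19 against mock in the authors' deposited table. The strongest region of all 253, 27.0 kb from the CYP26B1 start with a mean signal of 1311, stood at -0.03 ± 0.08 at 2 h and -0.11 ± 0.07 at 18 h in the authors' deposited table. A region at 260 kb (chr2:71882881-71883382, mean signal 432) came nearest to a call, at -0.40 ± 0.12 at 2 h (in the authors' deposited table, adjusted p = 0.0687).

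CRABP2, the carrier of retinoic acid, had all its 19 regions within 13.7 kb of its start and none called. The region nearest to its start (chr1:156704860-156705361, 387 bases from the deposited start, mean signal 212) stood at 0.11 ± 0.16 at 2 h and -0.15 ± 0.17 at 18 h against mock in the authors' deposited table. From 2 h to 18 h it stood at -0.26 ± 0.17 (in the authors' deposited table, adjusted p = 0.651). The strongest region, 3.93 kb away with a mean signal of 433, stood at -0.03 ± 0.12 and -0.17 ± 0.12 against mock in the authors' deposited table.

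**Figure D5:**
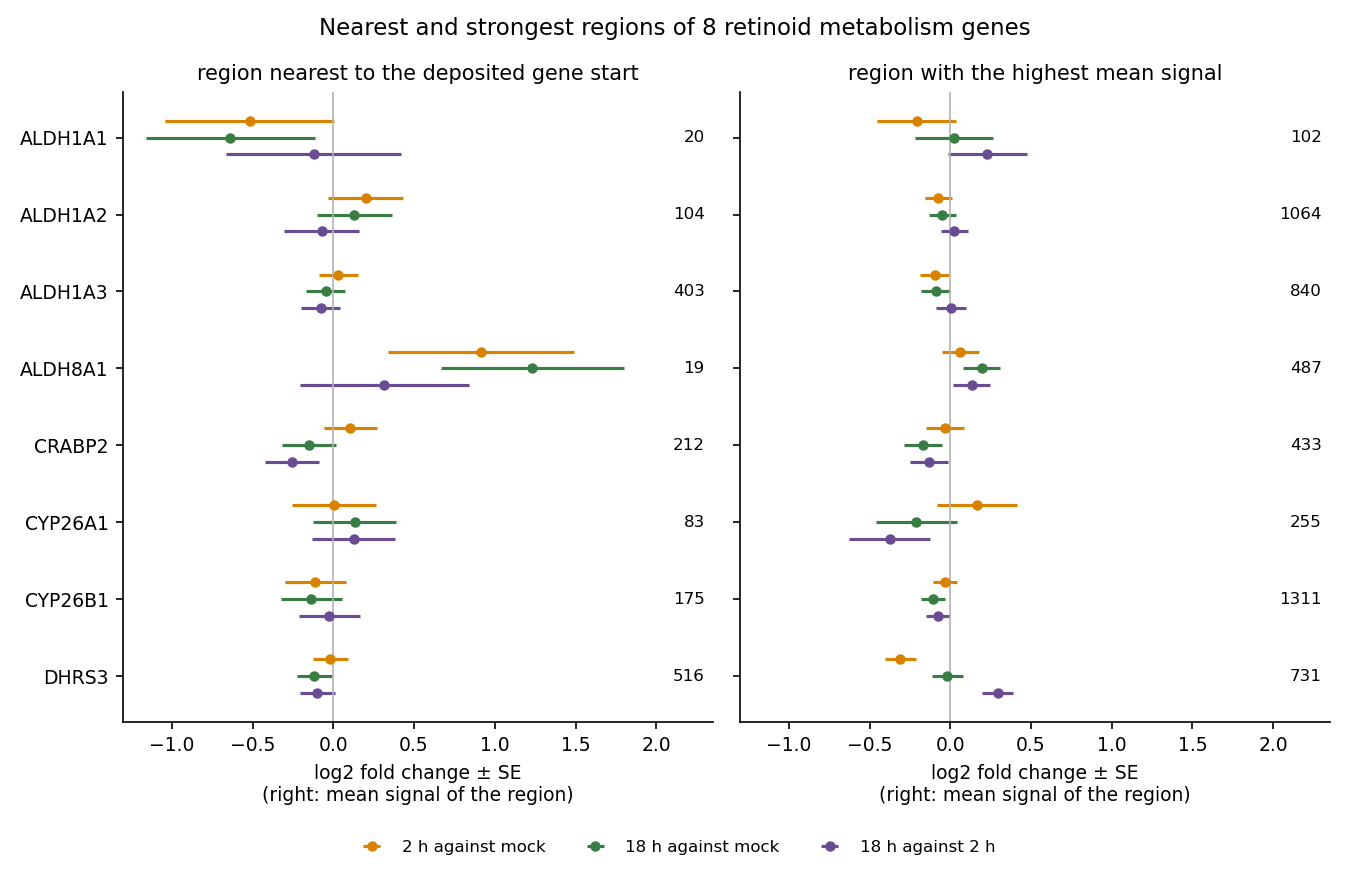
Log2 fold change (bars: SE) of the region nearest to the deposited start and of the region with the highest mean signal of each gene, in the 3 comparisons, with the region's mean signal at the right. The strongest DHRS3 region has the lowest value at 2 h against mock in the right panel (-0.31). The nearest regions lie between -0.52 (ALDH1A1) and 0.92 (ALDH8A1) at 2 h, both of them weak regions with wide bars, and those of the other 6 genes lie between -0.11 and 0.20.

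Calls in the rest of the pathway fell on 5 genes: TGM2, RDH14, RDH10, AKR1B10 and RARB. A list of 45 genes for retinol uptake and storage, retinol and retinal oxidation or reduction, carotenoid cleavage, binding, receptors and responsive genes had regions for 42 genes, 496 in all. At 2 h against mock, 4 of 197 tested regions were higher and 0 lower, at 18 h against mock 0 of 134 were called by DESeq2 (12 at an unadjusted p under 0.05), and at 18 h against 2 h 1 of 242 was higher and 7 lower. The 4 higher regions were 2.03% of those tested at 2 h, against 0.856% of all tested regions, and the 7 lower ones were 2.89%, against 2.98%. The medians were -0.05, -0.11 and -0.04 in the authors' deposited table. TGM2, a transglutaminase induced by retinoic acid, held 3 of the 4 regions that rose at 2 h, with log2 fold changes of 0.52 ± 0.13, 0.61 ± 0.13 and 0.59 ± 0.16 in the authors' deposited table. The same 3 regions and a further TGM2 region fell from 2 h to 18 h, by 0.73 ± 0.13, 0.53 ± 0.13, 0.60 ± 0.16 and 0.67 ± 0.13 in the authors' deposited table. The other region that rose at 2 h was named for RDH14, a retinal reductase, at 0.89 ± 0.16, and the authors' deposited table puts it 261 kb away. Regions of RDH10, the main retinol oxidase of the embryo, fell from 2 h to 18 h by 1.33 ± 0.26 and 0.74 ± 0.17, at 164 and 165 kb in the authors' deposited table. A region of AKR1B10, a retinal reductase, fell by 0.90 ± 0.21 in the authors' deposited table. The one higher region at 18 h against 2 h lay over the start of RARB, a receptor gene that retinoic acid itself induces, at 0.54 ± 0.17 (in the authors' deposited table, adjusted p = 0.0479). The other receptor genes, RARA, RARG, RXRA, RXRB and RXRG, had no called region.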

How the data were processed

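ATAC-seq gave 6 libraries of A375 cells. Per the submitters' processing notes, bcl2fastq 2.17 demultiplexed the reads, hg38 was the build and DESeq2 was used. Not given in the sources used here are the aligner, peak caller, read counter and any shift for Tn5. The deposited tables are the authors' 3 pairwise comparisons, with 0 columns for single libraries. They hold the mean signal of each region over 6 libraries as deposited by the authors (read counts divided by size factors), the deposited log2 fold change and its SE, the Wald statistic as a deposited score, and the authors' p-value and adjusted p. Mean signals did not differ between tables and the third comparison was the difference of the others to within 1.02e-14, so the tables come from 1 fit.

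No model was refitted: the count test planned for values per library could not be used. Repeat rows were dropped, so each region counts once per gene. Regions under the authors' limit on mean signal (adjusted p of exactly 1) count as not tested, and called means an adjusted p under 0.05. The counting was tested on simulated data. Named regions are, per gene, the nearest to its start, the strongest, every called one and, with no call, the one with the smallest p. The members and lists were chosen with earlier results of these data known. Distances are to the deposited start. Spans and promoter sequences are from RefSeq (GRCh38.p14); all 8 genes matched by symbol. Exons, introns and UTRs were not analysed here. Python 3.11.15, pandas 2.3.3, numpy 2.4.6, scipy 1.17.1 and matplotlib 3.10.9 were used. Alternatives changed the threshold, the centring, the filter on mean signal and the distance limit.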

Additional observations from a re-analysis of the deposited data

Results flagged for a closer look

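The 2 h and 18 h effects differed in 6 regions of the 8 genes and in 8 regions of the other pathway genes. The test of that difference is the authors' deposited comparison of 18 h with 2 h (DESeq2, adjusted p under 0.05). The ALDH1A3 regions stood at -1.10 (21.3 kb), -1.16 (22.1 kb) and -0.95 (34.5 kb) on the log2 scale in the authors' deposited table. The ALDH8A1 regions stood at -0.42 (40.7 kb), 1.01 (226 kb) and -0.98 (302 kb) in the authors' deposited table. Among the other pathway genes, AKR1B10 stood at -0.90, RARB at 0.54, RDH10 at -1.33 and -0.74, and TGM2 at -0.73, -0.53, -0.60 and -0.67 in the authors' deposited table. With 2.98% of all tested regions lower at 18 h than at 2 h, a lower value is also the more common direction over the whole table.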

How the results depend on the processing

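No call of the 8 genes reversed. The medians stayed small under all their alternatives but changed sign in each comparison. Centring moved them from -0.03 to 0.03 at 2 h and from -0.05 to 0.02 at 18 h against mock. At 18 h against 2 h, the median moved from -0.0052 to 0.06 without the ALDH1A3 regions, an alternative chosen after seeing the data. Over every region, tested or not, the medians were -0.0047 at 2 h, 0.08 at 18 h against mock and 0.04 at 18 h against 2 h. The 3 regions higher at 2 h became 0 at an adjusted p under 0.01, with no filter on mean signal, with the stricter filter (mean signal of 101 or more) and within 10 kb of a start. The 0 lower at 2 h became 2 at an adjusted p under 0.1 (CYP26B1 at 260 kb and DHRS3 at 21.5 kb). At 18 h against 2 h, the 1 higher became 4 under 0.1, 2 with no filter (DHRS3 at 50.1 kb joined), 2 with the stricter filter (DHRS3 at 21.5 kb joined) and 0 within 100 kb and within 10 kb. The 5 lower became 1 under 0.01, 3 with no filter, 1 with the stricter filter and 0 within 10 kb. A stricter threshold, more or fewer regions tested and fewer regions counted explain these changes by construction. Both centrings kept all 9 calls on single regions, 7 of 9 were lost under 0.01, and 5 of 9 with no filter. Over the whole table, centring on the median tested region moved the calls at 2 h from 737 higher and 363 lower (67.0% higher) to 1179 and 198 (85.6%), and at 18 h against mock from 3 and 64 (4.48%) to 3 and 8 (27.3%). No paired analysis was possible because the deposited tables hold no values per library; leaving out libraries, edgeR and DESeq2 refits were not run for the same reason. Depth is unknown, and SE of 0.3 to 0.5 at weak regions limit what could be called.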

Other observations

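A region close to DHRS3 but named for AADACL4, an arylacetamide deacetylase-like gene, changed where the DHRS3 regions were not called. It lay 18.2 kb from the DHRS3 span (chr1:12636404-12636905, mean signal 513) and was higher at 2 h by 0.77 ± 0.11 (in the authors' deposited table, DESeq2's adjusted p = 2.97e-08). At 18 h against mock it stood at -0.33 ± 0.12 (in the authors' deposited table, adjusted p = 0.301), and from 2 h to 18 h it fell by 1.11 ± 0.11 (adjusted p = 1.56e-17). Its direction at 2 h was opposite to that of 43 of the 47 DHRS3 regions.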
